A study of Mus musculus with 35 samples.

Results

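The 10 genes described here belong to bone morphogenetic protein (BMP) signaling in the embryonic mouse brain and were chosen by name out of 53465 genes in the bulk table: the ligands *Bmp2*, *Bmp4*, *Bmp5*, *Bmp6* and *Bmp7*, the type II receptor *Bmpr2*, the inhibitory Smad *Smad6* and the target genes *Id1*, *Id2* and *Id3*. All 10 were tested in bulk. In single cells, *Bmp6* was not listed, and 4 of the 10 (*Bmpr2*, *Id1*, *Id2* and *Id3*) passed the filter on low counts. Whole brains of wild-type E14.5 mouse embryos were dissociated and sorted by FACS into 4 populations. Each population had 3 bulk libraries, 1 from each of 3 brains, named here after their neural libraries N-340, N-343 and N-346, and values are given in that order. Neural cells were those negative for CD45, CD41, CD11b, PECAM1, CD102 and PDGFRβ, so that they hold progenitors as well as young neurons. Mural cells, the pericytes and smooth muscle cells of the vessel wall, were PDGFRβ high. Endothelial cells were positive for PECAM1 and CD102, and microglia were CD45 medium and CD11b positive. In the scRNA-seq, single cells of the same 4 populations were sorted into wells of 3 wild-type plates, where the microglia gate was labelled by CD45 and CD41. No group carried a transgene or a treatment.

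BMPs are secreted ligands of the TGF-β superfamily. They bring together a type II receptor such as BMPR2 and a type I receptor, which phosphorylates SMAD1, SMAD5 or SMAD9. These enter the nucleus with SMAD4 and switch on target genes, of which the *Id* genes respond most directly. ID proteins lack a DNA-binding domain and hold E proteins away from DNA, which restrains differentiation. *Smad6* is itself a BMP target and feeds back on the type I receptors. In the embryonic brain the pathway is known from the dorsal midline, the meninges and the vessel wall.

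*Id1* and *Id3* were highest in the vessel wall, in both mural and endothelial cells, and *Id2* was highest in microglia and second in neural cells. Among the ligands in bulk, *Bmp5* was a mural gene and *Bmp7* was found almost entirely in neural cells, at a low level. In the same libraries *Bmp4* had its highest mean in mural cells, varied between brains and did not pass the test between mural and endothelial cells. *Bmpr2* was lower in microglia than in the other 3 populations in bulk, and in single cells than in endothelial cells alone by the test. In bulk, *Bmp2* and *Smad6* gave no order that passed the test.

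The 4 populations were checked by lists of 10 markers each. Each list was highest in its own population for 9 or 10 of its 10 genes. Reads on genes ran from 17638358 to 98414914 per library, and 1 read was worth 0.264 to 1.77 normalized counts. RNA of the neural libraries was extracted and prepared with other kits than that of the remaining 9, so kit and population cannot be told apart in any comparison with neural cells. In bulk RNA, fewer cells of a type and less RNA per cell cannot be told apart either. Of 994 wells with a sort gate, 686 held more than 1500 transcripts: 123 from the neural, 210 from the mural, 225 from the endothelial and 128 from the microglia gate, with median depths of 7717, 6885, 6408 and 10761 transcripts. Plate 3 gave 43 of these cells.

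Bulk populations were compared pair by pair with limma on log2(normalized count + 1). A gene was called at a Benjamini-Hochberg adjusted p under 0.05 and a difference of at least 2-fold. Mural exceeded endothelial cells in 1 of the 10 genes, *Bmp5*, against 10.6% of all genes tested. No member was called in the other direction (12.02% of all genes). At an unadjusted p under 0.05 this comparison held 3 members, *Bmp5*, *Bmp6* and *Id1*, and edgeR called 2, *Bmp5* and *Bmp6*. Mural exceeded microglia in 5 genes (14.6% of all genes), and microglia exceeded mural cells in 1 gene, *Id2* (17.4%). Mural exceeded neural cells in 4 genes (22.4%) and neural exceeded mural cells in 3 (26.3%). Endothelial cells exceeded microglia in 5 genes (13.2%), with *Id2* again the 1 gene higher in microglia (14.48%). Endothelial exceeded neural cells in *Id1* and *Id3* (23.7%), and neural exceeded endothelial cells in 3 genes (28.02%). Microglia exceeded neural cells in *Id2* (25.8%), and neural cells exceeded microglia in 4 genes (27.95%). The median difference of the 10 members was 1.28 for mural minus microglia and 1.14 for endothelial minus microglia on the log2 scale, against -0.05 and -0.07 over all genes tested. It was -0.26 for mural minus neural, -0.92 for endothelial minus neural and -0.93 for microglia minus neural, against -0.13, -0.17 and -0.08 over all genes.

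**Figure D1:**
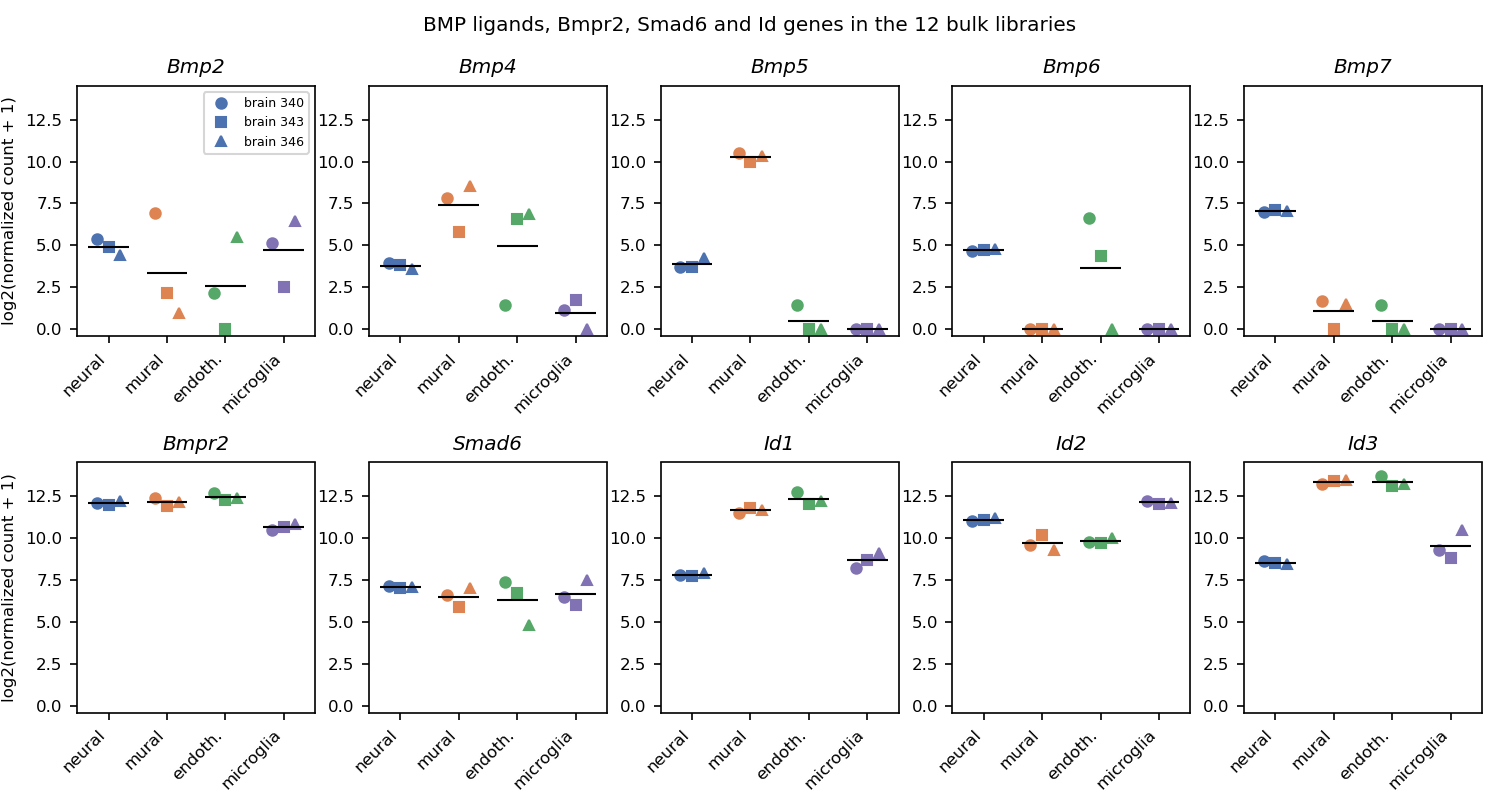
Level of each of the 10 genes in the 12 bulk libraries, as log2(normalized count + 1) on the vertical axis, by population on the horizontal axis. Symbols mark the 3 brains and black lines the mean of the 3 logged values. *Id1* and *Id3* sit high in mural and endothelial cells, *Id2* in microglia, *Bmp5* in mural cells and *Bmp7* in neural cells, while *Bmp2* and *Smad6* spread within populations.

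*Bmp5* (ENSMUSG00000032179), a ligand of the BMP7 subgroup, lies on chromosome 9 of GRCm38 from 75775364 to 75900310. It reached 1462, 1010.1 and 1289.6 normalized counts in mural cells of the 3 brains. Neural cells held 12.02, 12.2 and 17.7. Endothelial cells gave 1.77, 0 and 0, which is 1 read over the 3 libraries, and microglia gave no read. The mural libraries thus lay above all 9 others. The mural minus neural difference was 6.39 ± 0.58 (SE) on the log2 scale, with an adjusted p of 5.51e-06 in limma. The level was at least 345-fold higher in mural cells than in microglia, taking 3 reads per library as the floor. Neural cells also exceeded endothelial cells, by 3.39 ± 0.58 (adjusted p = 0.000523 in limma).

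*Bmp4* (ENSMUSG00000021835), a ligand of the BMP2/4 subgroup, lies on chromosome 14 from 46383520 to 46390669. Mural cells held 224, 55.9 and 374 normalized counts. Endothelial cells held 1.77, 93.7 and 116, neural cells 14.7, 13.3 and 11.1, and microglia 1.19, 2.37 and 0. Mural libraries lay above all neural and microglia libraries but overlapped the endothelial ones, where brain N-340 was far below the other two. Mural exceeded neural cells by 3.60 ± 1.31 on the log2 scale (adjusted p = 0.0379 in limma), exceeded microglia by 6.44 ± 1.31 (adjusted p = 0.00264) and did not pass the test against endothelial cells (2.43 ± 1.31, adjusted p = 0.198). Endothelial cells exceeded microglia by 4.01 ± 1.31 (adjusted p = 0.0379 in limma). With the brain as a block the adjusted p against neural cells was 0.0530 and that for endothelial cells against microglia 0.0552. The call against neural cells was also lost without brain N-343 (adjusted p = 0.0828) and without brain N-346 (0.218), and that of mural cells against microglia without brain N-346 (0.0636). For endothelial cells against microglia the limma p was 0.188 without brain N-343 and 0.336 without brain N-346.

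The promoter windows of these ligands, the pair with the highest mural levels, are shown because their base composition differs. They hold the 250 bases before the start site on the gene's strand, from RefSeq on GRCm38.p6, at chr9:75775115-75775364 (plus strand) for *Bmp5* and chr14:46390670-46390919 (minus strand) for *Bmp4*. Capitals mark matches on either strand to the CCAAT box, to the TATAAA box, to the E-box CACGTG or to the GC-rich element GGCGCC, which BMP Smads are known to bind. 
Bmp5: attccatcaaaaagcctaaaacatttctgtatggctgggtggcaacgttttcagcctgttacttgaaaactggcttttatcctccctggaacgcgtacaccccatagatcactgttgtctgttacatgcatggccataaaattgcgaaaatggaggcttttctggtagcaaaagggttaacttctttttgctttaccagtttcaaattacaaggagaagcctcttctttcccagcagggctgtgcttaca
Bmp4: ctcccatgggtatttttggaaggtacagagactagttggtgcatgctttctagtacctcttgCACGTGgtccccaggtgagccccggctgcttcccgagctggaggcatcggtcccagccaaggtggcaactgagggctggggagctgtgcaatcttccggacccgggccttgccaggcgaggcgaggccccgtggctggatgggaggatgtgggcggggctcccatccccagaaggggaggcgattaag
The *Bmp5* window was 42.8% G and C and held none of the 4 motifs. The *Bmp4* window was 63.2% G and C and held 1 CACGTG. Over 32851 windows of this length the median was 52.4% G and C. CCAAT was in 33.8% of them, TATAAA in 12.4%, GGCGCC in 9.59% and CACGTG in 6.02%.

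*Bmp7* (ENSMUSG00000008999; chromosome 2, 172868012 to 172940321) encodes a ligand that forms heterodimers with BMP2 and BMP4. Neural cells held 125.5, 136 and 131 normalized counts. Mural cells held 2.18, 0 and 1.88, endothelial cells 1.77, 0 and 0, and microglia none. The neural libraries lay above all others, and the difference from mural cells was 5.98 ± 0.60 on the log2 scale (adjusted p = 1.14e-05 in limma). Against microglia the level was at least 36.0-fold higher. The choroid plexus, a known site of BMP production, is one tissue that a whole-brain neural gate can hold. The list of 8 choroid plexus markers summed to 2331 to 2985 in neural libraries and to at most 721 elsewhere, with 3 of 8 genes highest in neural cells. *Otx2* made up most of it, at 2239.5 to 2903, whereas *Kcne2* was between 0 and 2.22 and *Ttr* between 6.09 and 16.02. The part of such RNA in the *Bmp7* level was not tested.

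*Bmp6* (ENSMUSG00000039004; chromosome 13, 38345107 to 38500302) had 24.0, 26.0 and 26.7 normalized counts in neural cells and 97.5, 19.9 and 0 in endothelial cells. No read was found in mural cells or microglia. The neural libraries agreed closely whereas the endothelial ones ranged from none to the highest value of the gene. Neural cells were at least 10.2-fold above mural cells and at least 7.04-fold above microglia (adjusted p = 0.00814 and 0.00720 in limma), and without brain N-343 the limma p rose to 0.0959 and 0.0870. The call of endothelial cells over microglia (adjusted p = 0.0447 in limma) was lost with the brain as a block (0.0504), without brain N-340 (0.296) and without brain N-343 (0.281). Mural against endothelial cells missed the threshold (adjusted p = 0.0505 in limma) but passed it without brain N-346 (0.00698) and in edgeR (0.0375).

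*Bmp2* (ENSMUSG00000027358; chromosome 2, 133552159 to 133562885) had 41.4, 28.8 and 20.6 normalized counts in neural cells and 123, 3.42 and 0.939 in mural cells. Endothelial cells held 3.54, 0 and 45.2, and microglia 34.5, 4.74 and 85.6. Every population overlapped every other. The lowest adjusted p over its 6 comparisons was 0.267 in limma, with standard errors of 1.72 on the log2 scale.

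Set against exon length, the ligands ranked differently in each population. In mural cells *Bmp5* had a mean of 311 normalized counts per kb of exon, *Bmp4* 96.9 and *Bmp2* 11.9. In neural cells *Bmp7* led with 32.6 per kb, and the other 4 ligands lay between 3.47 and 8.51. In endothelial cells *Bmp4* had 31.4 and *Bmp6* 10.03 per kb, and in microglia *Bmp2* had 11.7 and no other ligand of the 5 exceeded 0.528. Without brain N-340 mural *Bmp2* was at 0.614 in place of 11.9 and endothelial *Bmp6* at 2.55 in place of 10.03 per kb, below endothelial *Bmp2* at 6.36. Without brain N-346 endothelial *Bmp2* was at 0.498 and microglial *Bmp2* at 5.52 per kb, and mural *Bmp4* was at 62.2. The target genes *Id1* and *Id3* were far higher, at 2796 and 5830.2 per kb in mural cells, whereas mural *Id2* was at 350 per kb, near *Bmp5*.

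*Bmpr2* (ENSMUSG00000067336; chromosome 1, 59763400 to 59879014) encodes the type II receptor that binds most BMPs. Neural cells held 4380.1, 3975 and 4677 normalized counts, mural cells 5262, 3813 and 4611, and endothelial cells 6675, 4882 and 5274. Microglia held 1414, 1608 and 1809, and all 3 values lay below the other 9. Microglia were lower than endothelial cells by 1.79 ± 0.16, than mural cells by 1.496 ± 0.16 and than neural cells by 1.43 ± 0.16 on the log2 scale (adjusted p = 8.16e-06, 3.23e-05 and 2.36e-05 in limma). The other 3 populations did not differ past the threshold, with adjusted p from 0.0817 to 0.783 in limma, although every endothelial value lay above the neural ones. *Smad6* (ENSMUSG00000036867; chromosome 9, 63953076 to 64022059), which blocks the type I receptors and SMAD1, had 140.2, 128 and 136 normalized counts in neural cells. Mural cells held 96.1, 59.4 and 127, endothelial cells 163, 106 and 27.1, and microglia 89.1, 64.0 and 178. Its adjusted p-values ran from 0.343 to 0.885 in limma.

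*Id1* (ENSMUSG00000042745; chromosome 2, 152736251 to 152737410) had 6759.9, 4161 and 4677 normalized counts in endothelial cells and 2917, 3579 and 3235 in mural cells. Microglia held 299.5, 406 and 560.2 and neural cells 223, 212 and 239. No value of the vessel wall came near those of the other populations. Endothelial exceeded neural cells by 4.50 ± 0.25 on the log2 scale (adjusted p = 1.55e-07 in limma), a 23.1-fold ratio of means, and mural exceeded neural cells by 3.84 ± 0.25 (adjusted p = 4.57e-07), a 14.4-fold ratio. Over microglia the differences were 3.64 ± 0.25 and 2.98 ± 0.25 (adjusted p = 9.07e-07 and 3.94e-06 in limma). Endothelial libraries lay above the mural ones without overlap, but their difference of 0.65 ± 0.25 did not pass the test (adjusted p = 0.0753 in limma). Microglia and neural cells differed by 0.86 ± 0.25 (adjusted p = 0.0119 in limma), short of 2-fold.

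*Id3* (ENSMUSG00000007872; chromosome 4, 136143497 to 136145755) had 9691, 10607 and 11028 normalized counts in mural cells and 13312, 8920.2 and 9438 in endothelial cells. Neural cells held 403, 361 and 349.8 and microglia 629.98, 444 and 1406. Mural and endothelial libraries overlapped, with means of 10442 and 10557 and an adjusted p of 1.0 in limma. Mural cells were higher than neural cells by 4.81 ± 0.34 on the log2 scale (adjusted p = 8.09e-07 in limma) and higher than microglia by 3.83 ± 0.34 (adjusted p = 6.10e-06). Endothelial cells were higher than neural cells by 4.80 ± 0.34 and higher than microglia by 3.82 ± 0.34 (adjusted p = 7.83e-07 and 6.53e-06 in limma). Microglia exceeded neural cells by 0.98 ± 0.34 (adjusted p = 0.0274 in limma), just under 2-fold. The endothelial marker list summed in mural libraries to 5.37% of its endothelial level, and the mural list in endothelial libraries to 0.794% of its mural level. *Emcn* (4466 to 5508) and *Esam* (3017 to 5404) made up most of the endothelial list in mural libraries. *Cldn5* was at 0 to 147 and *Pecam1* at 38.5 to 65.5 there. Mural *Id1* stood at 62.4% and mural *Id3* at 98.9% of the endothelial mean. The list of 7 erythroid markers summed to 13054 to 34138 in endothelial libraries, with 6 of 7 genes highest there, to 9042 to 11841 in neural libraries and to at most 2075 elsewhere, and the part of such RNA in the endothelial *Id* levels was not tested.

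*Id2* (ENSMUSG00000020644; chromosome 12, 25093799 to 25097140), a family member that acts in blood and neural lineages, ran the other way. Microglia held 4707, 4248 and 4435 normalized counts and neural cells 2067, 2155 and 2369.5. Endothelial cells held 875, 828 and 1033 and mural cells 781, 1148 and 633. The microglia, the neural cells and the vessel wall formed 3 levels without overlap, and mural and endothelial cells did not differ past the threshold (adjusted p = 0.677 in limma). Microglia exceeded mural cells by 2.43 ± 0.20 and endothelial cells by 2.30 ± 0.20 on the log2 scale (adjusted p = 4.04e-06 and 6.71e-06 in limma). Neural exceeded mural cells by 1.40 ± 0.20 and endothelial cells by 1.27 ± 0.20 (adjusted p = 0.000172 and 0.000331 in limma). Microglia exceeded neural cells by 1.02 ± 0.20 (adjusted p = 0.00130 in limma), which fell to 0.94 without brain N-340 (adjusted p = 0.0408), under the 2-fold threshold. After quantile normalization the difference between endothelial and neural cells was -0.97, also under 2-fold. Markers of border macrophages, a second myeloid population of the brain, summed to 15428 to 19619 normalized counts in the microglia libraries against at most 1041 elsewhere, with 6 of 7 genes highest there. *Mrc1* (7987 to 10492) and *F13a1* (5938 to 7321) made up most of it. *Lyve1*, *Pf4* and *Ms4a7* lay between 247 and 998, *Cd163* was at 0, 61.7 and 0, and *Cbr2* at 21.4, 22.5 and 3.78. In single cells the list summed to 158 CPM in the microglia gate, against 13093 for the microglia list and at most 20.0 in the other gates. The part of border macrophages in the *Id2* level was not tested.

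Across the 12 libraries *Id1* and *Id3* followed each other with a Pearson r of 0.985 of log2(normalized count + 1). *Id2* had an r of -0.822 with *Id1* and -0.833 with *Id3*. The points share population, kit and depth, so the values describe the order of the populations. Among genes with a mean of at least 100 normalized counts, the 3 most like each member by r were *Tmem204*, *Tram2* and *Selenom* for *Id3* (0.989 to 0.992), *Gm9844*, *Gm49266* and *Dock6* for *Id1* (0.989 to 0.990), and *Rnf130*, *Coro2a* and *Mlxipl* for *Id2* (0.975 to 0.982). They were *Col6a3*, *Rbm46* and *Gm26945* for *Bmp5* (0.992 to 0.994), *Kat6b*, *Prpf8* and *Fam168a* for *Bmp7* (0.988 to 0.993), *Ror1*, *Idh3b* and *Cobll1* for *Bmp4* (0.947 to 0.967), and *Abca4*, *Hspg2* and *Hif3a* for *Bmpr2* (0.970 to 0.976). The highest r reached was 0.944 for *Bmp6*, 0.881 for *Smad6* and 0.853 for *Bmp2*.

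In single cells, the share of cells with at least 1 transcript is given with its exact 95% interval, which covers counting error only. *Id3* transcripts were found in 71.4% of 210 mural cells (64.8 to 77.4). In the 225 endothelial cells the share was 61.8% (55.1 to 68.2). It was 8.94% (4.55 to 15.4) in neural cells and 4.69% (1.74 to 9.92) in microglia, the most deeply sequenced cells. For *Id1* the endothelial gate gave 29.8% (23.9 to 36.2) and the mural gate 28.6% (22.6 to 35.2), while the neural gate gave 7.32% (3.40 to 13.4) and the microglia gate 4.69% (1.74 to 9.92). *Id2* was found in 57.8% of microglia (48.8 to 66.5) and 33.3% of neural cells (25.1 to 42.4), ahead of the endothelial gate at 27.1% (21.4 to 33.4) and the mural gate at 17.6% (12.7 to 23.5). Both vessel-wall gates thus lay above the other gates for *Id1* and *Id3*, with intervals that did not overlap. The order of the gates for *Id2* was that of the bulk means, but only the microglia interval stood clear of the rest. Neural and endothelial intervals overlapped, as did endothelial and mural ones. After thinning every cell to 1500 transcripts the *Id3* shares were 36.7% in mural, 25.3% in endothelial, 3.25% in neural cells and 1.56% in microglia, and the *Id2* shares 22.7% in microglia, 17.1% in neural, 7.11% in endothelial and 5.71% in mural cells. Thinned *Id1* shares were 12.4% in endothelial, 7.14% in mural, 2.44% in neural cells and 0.781% in microglia. No intervals were made for thinned shares.

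**Figure D2:**
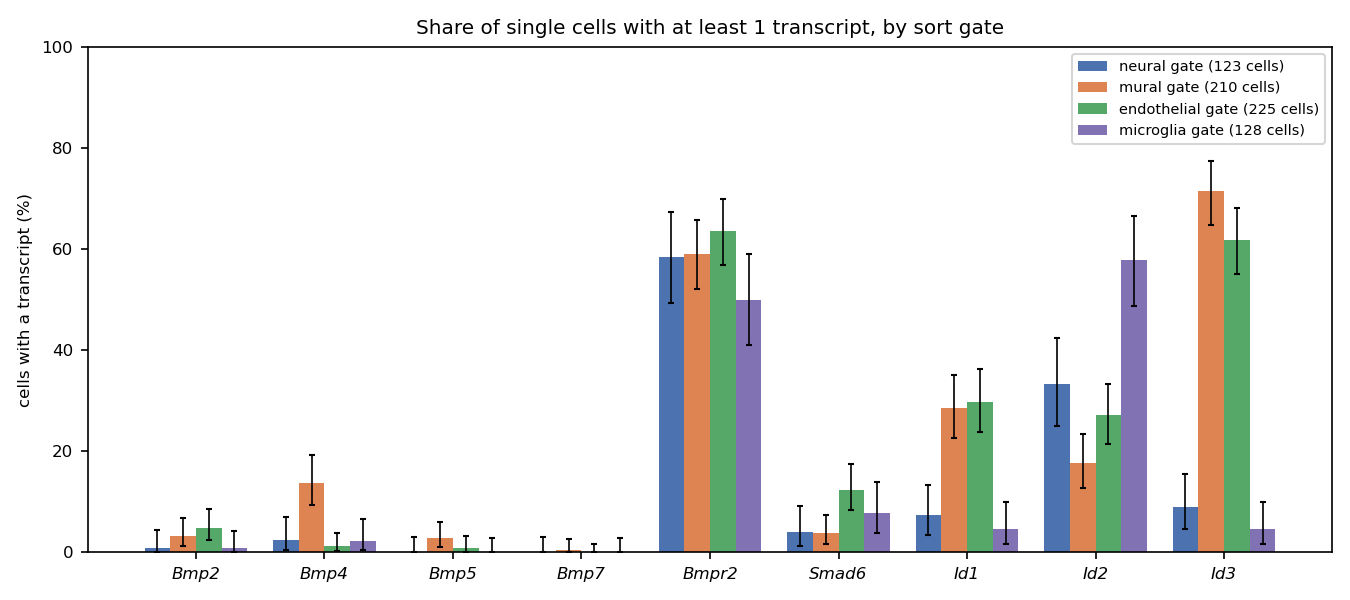
Percentage of cells with at least 1 transcript (vertical axis) for the 9 genes listed in the single-cell data, by sort gate. Bars are shares and lines exact 95% intervals. *Id3* is found in most cells of the mural (71.4%) and endothelial (61.8%) gates and *Id2* in most of the microglia gate (57.8%), while *Bmpr2* reaches 63.6% in the endothelial gate. *Bmp5* and *Bmp7* stay under 3% in every gate.

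Transcripts were summed per plate and gate and tested with edgeR. Of the 4 members tested, mural exceeded microglia in *Id1* and *Id3* (17.8% of all genes tested) and microglia exceeded mural cells in *Id2* (16.7%). Mural exceeded neural cells in *Id1* and *Id3* (14.4%), with *Id2* the 1 member in the other direction (15.7%). Endothelial cells exceeded microglia in *Id1*, *Id3* and *Bmpr2* (17.5%), with *Id2* in the other direction (14.9%). Endothelial exceeded neural cells in *Id1* and *Id3* (17.3%), with *Id2* reversed (16.1%). Microglia exceeded neural cells in *Id2* (19.6%). In the other direction (21.4%) edgeR called none, with 0 at an unadjusted p under 0.05, and DESeq2 called 0, with *Bmpr2* under 0.05 unadjusted. In edgeR *Id2* was thus higher in microglia than in each of the other 3 gates (9.51% of all genes), but the call over neural cells was lost in DESeq2 (adjusted p = 0.205) and, in edgeR, without plate 1 (0.407) or plate 2 (0.181). Between mural and endothelial cells edgeR called none of the 4 (8.25% and 10.5% of all genes), with 1 member at an unadjusted p under 0.05, *Bmpr2*, and 0 called by DESeq2, which also had 0 at an unadjusted p under 0.05.

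*Id3* reached 347, 256 and 398.5 CPM (counts scaled to 1000000 transcripts per sum) in mural cells of plates 1, 2 and 3 and 285, 237 and 99.7 in endothelial cells. Neural cells held 42.1, 16.6 and 65.7 CPM and microglia 34.1, 12.4 and 19.7. The vessel wall lay above the other gates on every plate. Mural exceeded neural cells by 3.19 ± 0.37 on the log2 scale (adjusted p = 1.58e-10 in edgeR) and microglia by 3.45 ± 0.37 (adjusted p = 1.05e-11). For *Id1* mural cells held 60.2, 54.3 and 41.2 CPM, endothelial cells 87.6, 62.9 and 85.5, neural cells 6.64, 18.9 and 54.8, and microglia 4.44, 12.4 and 19.7. The neural value of plate 3, which rests on 5 transcripts, reached the mural range. For *Id1* the mural minus neural difference was 1.67 ± 0.46 (adjusted p = 0.00322 in edgeR), against 3.84 in bulk. That call was lost in DESeq2 (adjusted p = 0.226), without plate 1 (0.496) and without plate 2 (0.261). Without plate 1 the *Id1* calls of mural cells over microglia (adjusted p = 0.117) and of endothelial over neural cells (0.179) were lost as well.

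*Id2* had 231, 251 and 276 CPM in microglia and 102, 152 and 230.0 in neural cells. Endothelial cells held 50.04, 58.1 and 28.5 CPM and mural cells 45.9, 29.5 and 13.7. The microglia lay above the vessel wall on every plate, and the neural cells did so as well. Mural minus microglia was -3.07 ± 0.32 and endothelial minus microglia -2.38 ± 0.30 on the log2 scale (adjusted p = 2.72e-12 and 1.41e-09 in edgeR). Mural minus neural was -2.05 ± 0.34 and endothelial minus neural -1.37 ± 0.32 (adjusted p = 1.25e-06 and 0.000403 in edgeR). Without plate 3 the last of these was -0.97, under 2-fold. Microglia exceeded neural cells by 1.01 ± 0.28 (adjusted p = 0.00203 in edgeR), with the losses given above. *Bmpr2* had 81.4, 91.7 and 39.4 CPM in microglia against 190, 231 and 142.5 in endothelial cells, a difference of 1.13 ± 0.28 (adjusted p = 0.000972 in edgeR), with an adjusted p of 0.0621 without plate 1 and 0.0902 without plate 2.

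**Figure D3:**
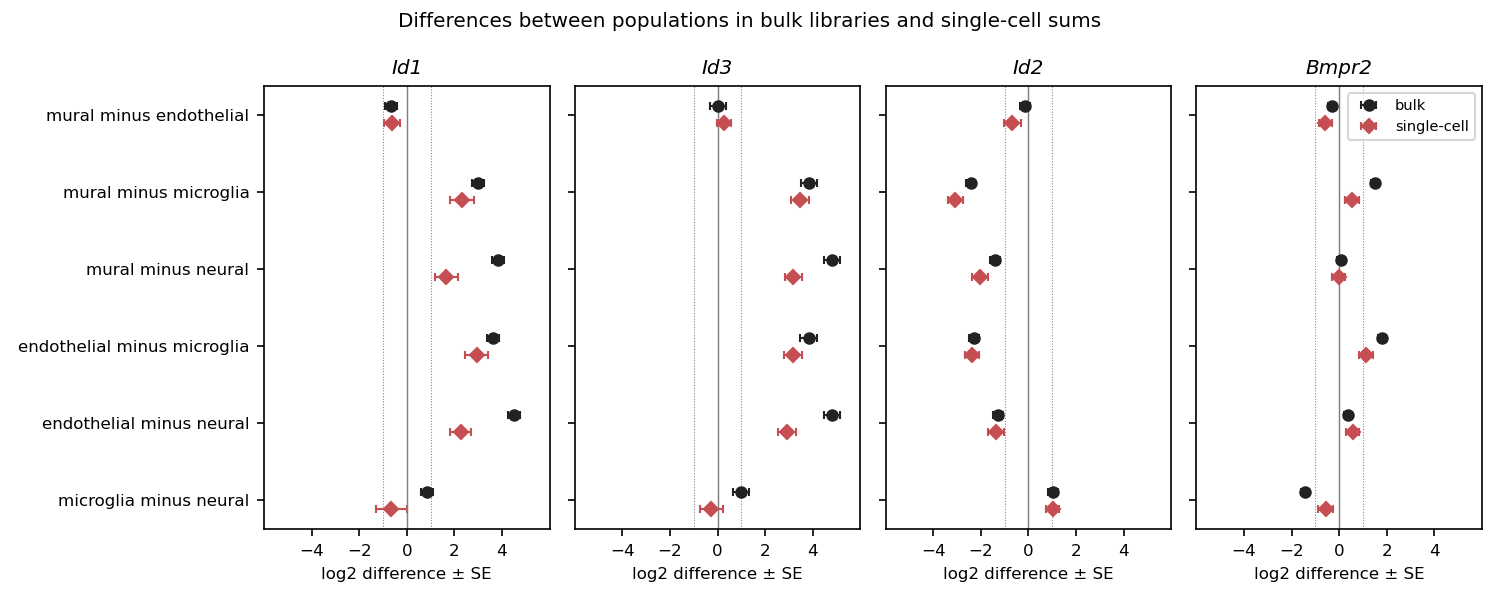
Log2 differences between populations (horizontal axis, ± SE) for *Id1*, *Id3*, *Id2* and *Bmpr2*, from limma on bulk libraries (circles) and edgeR on single-cell sums per plate (diamonds), with 6 comparisons on the vertical axis and dotted lines at a 2-fold difference. For *Id1* and *Id3* the bulk differences of the vessel wall from neural cells are larger than the single-cell ones (4.81 against 3.19 for *Id3*, mural minus neural).

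The ligands were sparse in single cells. *Bmp4* was found in 29 of 210 mural cells (13.8%, 9.45 to 19.2), against 1.33% of endothelial cells, 2.44% of neural cells and 2.34% of microglia. Its 42 mural transcripts came from plates 1 and 2 and none from plate 3, which held 10 mural cells. *Bmp4* did not pass the filter on low counts. Without that filter, which the planned test kept, edgeR gave a mural minus endothelial difference of 3.24 ± 0.71 on the log2 scale (adjusted p = 0.000115). That value rested on 42 mural against 4 endothelial transcripts, all from plates 1 and 2, and no order is read from it. *Bmp5* was found in 6 mural cells (2.86%, 1.06 to 6.11), 2 endothelial cells and no neural cell or microglia. Per kb of exon the bulk mural mean of *Bmp5* was above that of *Bmp4* (311 against 96.9), whereas in single mural cells *Bmp5* had 7 transcripts and *Bmp4* 42. *Bmp7* was found in 0 of 123 neural cells (a count of 0 allows up to 2.95%), and 1 mural cell held 2 transcripts. A *Bmp7* difference between gates was not detectable at this depth. *Bmp2* was found in 11 endothelial cells (4.89%, 2.47 to 8.58), 7 mural cells (3.33%, 1.35 to 6.75) and 1 cell each of the neural and microglia gates. *Smad6* was found in 12.4% of endothelial cells (8.43 to 17.5), 7.81% of microglia, 4.07% of neural cells and 3.81% of mural cells (1.66 to 7.37). Without the filter on low counts the mural minus endothelial difference of *Smad6* was -1.98 ± 0.61 on the log2 scale (adjusted p = 0.0147 in edgeR), although its bulk values in these populations overlapped. That value rested on 9 mural against 39 endothelial transcripts, none of them from plate 3, and no order is read from it.

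The mural libraries also held RNA of the meningeal fibroblast list, at 9154 to 12048 normalized counts against at most 646 in the other libraries, with 7 of its 10 genes highest in mural cells. *Col3a1* and *Col1a2* made up most of it, *Pdgfra* was at 0, 0 and 0.939, and *Lum* at 137.6, 0 and 5.64. In single mural cells the list summed to 766 CPM, against 16.1 to 27.0 in the other gates. The 6 mural cells with a *Bmp5* transcript held a median of 12.3 fibroblast-list transcripts per 10000 in all (3.68 to 19.6), against 5.98 in the 204 without (0 to 35.7). The 29 with *Bmp4* held 7.78 against 5.88 in the other 181. Mural markers summed to a median of 184 per 10000 transcripts in the *Bmp5* cells and 122 in those without. The part of such RNA in the mural level of *Bmp4* and *Bmp5* was not tested.

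Within the neural gate, cells were split by the larger sum of 10 progenitor and 10 young-neuron markers, none of which is a member. The progenitor side held 42 cells and the neuron side 79, with median depths of 8064 and 7680 transcripts, 2 tied cells were left out, and 16 of 123 cells lay near the line, with less than a 2-fold ratio of the sums, 11 of them on the progenitor side and 4 on the neuron side. *Id1* was found in 9 of 42 cells on the progenitor side (21.4%, 10.3 to 36.8) and in 0 of 79 on the neuron side, where a count of 0 allows up to 4.56%. Its transcripts were 3, 8 and 5 on plates 1 to 3 against none, at least a 10.6-fold difference in CPM with 3 transcripts over the neuron side as the floor. *Id3* was found in 19.05% of the progenitor side (8.60 to 34.1) and 3.797% of the neuron side (0.790 to 10.7). It had 16, 7 and 6 transcripts against 3, 0 and 0, a 19.2-fold ratio in CPM (counting interval 5.94 to 98.3). That interval takes transcripts as independent, but the 29 on the progenitor side came from 8 cells, so it may be too narrow. The neuron side lay below on every plate for both genes. Without the cells near the line *Id1* was found in 7 of 31 cells on the progenitor side (22.6%, 9.59 to 41.1) and 0 of 75 on the neuron side, and *Id3* in 7 of 31 and 3 of 75. *Id2* was found in 38.1% and 31.6% of cells, with 92.0, 120.4 and 68.5 CPM on the progenitor side against 110, 162 and 317 on the neuron side. The progenitor side was thus lower in *Id2* CPM on every plate, although the ranges of the sides overlap. With every cell thinned to 1500 transcripts the *Id2* shares were 11.9% on the progenitor side and 20.3% on the neuron side, the reverse of the order before thinning, and no order is read from them. The thinned shares of *Id1* were 7.14% and 0%, and those of *Id3* 9.52% and 0%.

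Of these, only *Bmpr2* and *Id2* passed the filter on low counts on the sides, and edgeR called neither, with 0 at an unadjusted p under 0.05 and 0 called by DESeq2, against 5.28% of all genes called higher on the progenitor side and 8.73% on the neuron side. *Id2* differed by -0.81 ± 0.45 on the log2 scale (adjusted p = 0.257 in edgeR). Without the filter, an alternative chosen after seeing the data, edgeR called *Id1* (adjusted p = 0.000152) and *Id3* (adjusted p = 4.54e-05) higher on the progenitor side. *Id4*, a further family member outside the 10, passed the filter and was higher on the progenitor side by 2.10 ± 0.45 (adjusted p = 0.00673 in edgeR).

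**Figure D4:**
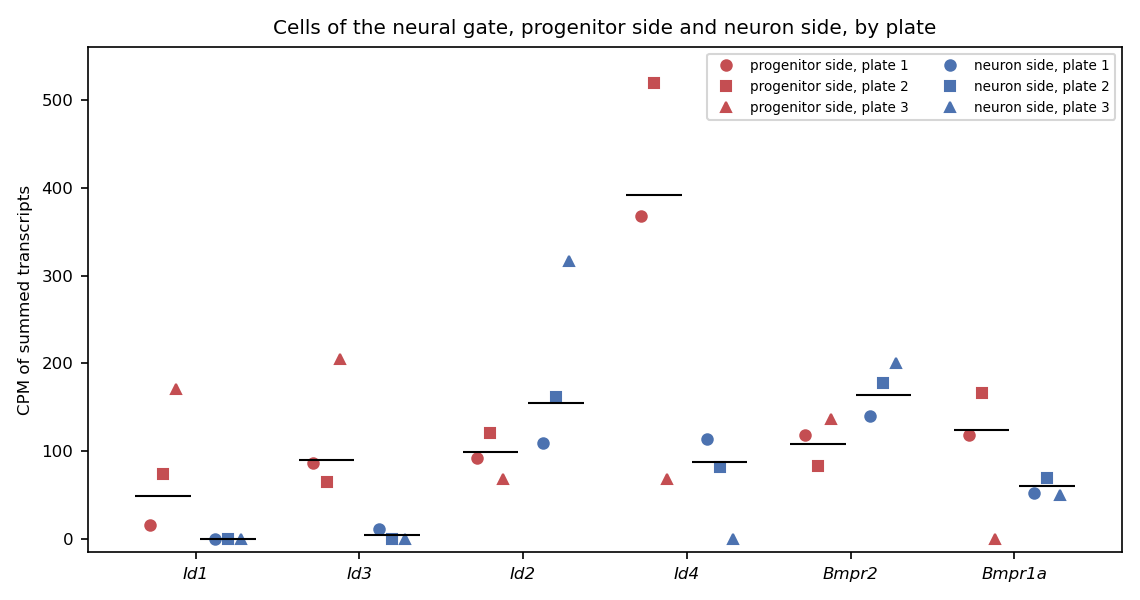
CPM of summed transcripts (vertical axis) in cells of the neural gate on the progenitor side and the neuron side, per plate (symbols), with the value over all plates as a black line. *Id1* and *Id3* lie higher on the progenitor side on each plate, and *Id2* and *Bmpr2* lie lower there on each plate. *Id4* and *Bmpr1a*, from the pathway list, are drawn beside them.

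The other genes of the pathway were taken from a list of 54, of which 40 were tested in bulk. In bulk, where neural libraries also differed by kit, neural cells exceeded each of the other 3 populations in 17 of the 40, against 15.1% of all genes tested. Mural cells did so in 2 (2.91%) and endothelial cells in 4 (3.54%). Microglia did so in 0 (6.88%) in limma, with 0 at an unadjusted p under 0.05 against each population and 0 called by edgeR. Among the members the corresponding genes were *Bmp7* for neural cells, *Bmp5* for mural cells and *Id2* for microglia. The median difference of the 40 in bulk was -2.56 on the log2 scale for microglia minus neural, against -0.08 over all genes, and 1.22 for mural minus microglia, against -0.05. It was -1.39 for endothelial minus neural and -1.55 for mural minus neural, against -0.17 and -0.13. In single cells 25 of the list were tested. Their medians were -1.22 for microglia, 0.40 for endothelial and -0.06 for mural minus neural, against -0.05, -0.04 and -0.11 over all genes. In bulk without brain N-343 the mural count was 0 and the endothelial one 2, without brain N-340 or N-346 the mural count was 1, and without brain N-346 the neural count was 10. In the single-cell sums the neural gate exceeded each other gate in 2 of the 25, *Acvr2b* and *Id4*. The mural gate did so in 3 and the endothelial gate in 6. Against neural cells the endothelial gate was higher in 9 (17.3% of all genes) and lower in 4 (16.1%). The mural gate was higher in 7 (14.4%) and lower in 3 (15.7%), and the microglia gate higher in 3 (19.6%) and lower in 14 (21.4%).

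Of 9 other ligands 2 were high enough to test. *Bmp3*, an antagonistic family member, had 128, 145 and 164 normalized counts in neural cells and at most 1.77 elsewhere. *Bmp8a* had 218, 162 and 339 in endothelial cells and at most 103 elsewhere. The type I receptors split by population. *Bmpr1a* had 3521 to 3642 in neural cells and 1375 to 2092 in mural cells, but 96 to 292 in endothelial cells, a mural minus endothelial difference of 3.52 ± 0.38 (adjusted p = 6.01e-05 in limma). *Acvrl1*, which encodes the endothelial receptor ALK1, had 3250 to 4672 in endothelial cells and 2.38 to 2.77 in neural cells, an endothelial minus neural difference of 10.06 ± 0.61 (adjusted p = 2.64e-07 in limma). The co-receptor *Eng* followed *Acvrl1*, with 18059 to 27511 in endothelial cells. In single cells *Bmpr1a* was found in 37.6% of mural and 1.33% of endothelial cells and *Acvrl1* in 35.6% of endothelial and 0 of 123 neural cells. Neural and mural cells were level there in *Bmpr1a*, at 81.8 and 83.2 CPM, where bulk neural cells were higher. The type I receptor *Acvr1* had its highest bulk mean in neural cells, at 1204 to 1259.7 normalized counts against 317 to 1153 in endothelial cells, but was found in 40.9% of endothelial and 23.6% of neural cells.

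Of the signal-carrying Smads 3 of 4 were tested. *Smad5* had 7125 to 7370.1 normalized counts in neural cells, 3647 to 3757 in endothelial, 1188 to 1567 in mural cells and 1402 to 1523 in microglia. In bulk, mural cells held less *Smad5* than neural cells by 2.40 ± 0.12 on the log2 scale (adjusted p = 9.22e-08 in limma). In single cells *Smad5* was at 67.1 CPM in mural, 113 in neural and 140 in endothelial cells and 40.1 in microglia. Of the 3 Smads tested there, edgeR called 0 between mural and neural cells (14.4% and 15.7% of all genes). A link between *Smad5* and *Id* levels was not tested. Of 4 inhibitors, *Bambi*, a receptor without a kinase domain, reached 4614 to 7340 in endothelial cells against 585 to 711 in mural cells, and *Smad7* was high in endothelial cells (1252 to 1902) and microglia (1506 to 1751). Among 13 antagonists and modulators tested in bulk 6 were higher in neural cells than in each other population in limma (15.1% of all genes), 3 in edgeR and 2 in limma without brain N-346. In single cells 6 of the list were tested, and 0 were higher in the neural gate than in each other gate. The 6 in limma include *Chrd* (351 to 383), *Fst* (237 to 311) and *Bmper* (549 to 600, and 264 in 1 mural library). Of these *Chrd* was among the 3 in edgeR, while *Fst* and *Bmper* were not, nor did they exceed each other population there at an unadjusted p under 0.05. *Bmper* also missed that level in limma without brain N-343 and without brain N-346. Mural cells led in *Fstl1* (49247 to 54923) and in *Nbl1* (1851 to 3808), and endothelial cells in *Kcp* (2881 to 4190). *Id4*, unlike *Id1* and *Id3*, was highest in neural cells, at 7739 to 8726 against at most 1464 elsewhere. Of the E proteins, the partners of the ID proteins, *Tcf4* had 18292 to 20378 normalized counts in neural cells, 11020.1 to 11639 in mural cells, 13165 to 16213 in endothelial cells and 4477 to 6365 in microglia.

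**Figure D5:**
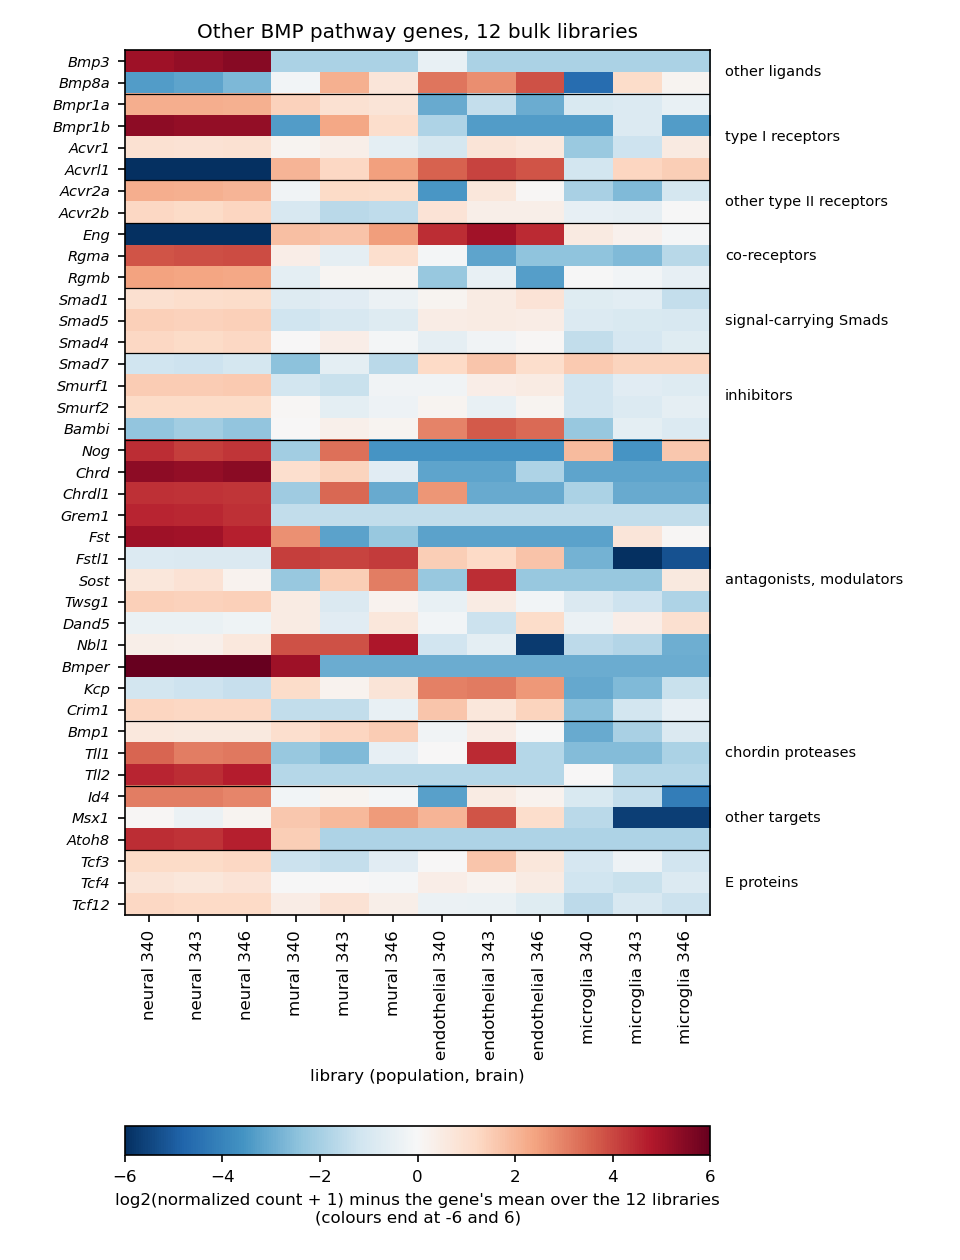
The 40 tested genes of the pathway list in the 12 bulk libraries, ordered by role. Color gives log2(normalized count + 1) minus the gene's mean over the libraries, and ends at -6 and 6. Red blocks mark the neural antagonists such as *Chrd* and *Bmper*, the endothelial *Acvrl1*, *Eng*, *Bambi* and *Kcp*, and the mural *Fstl1* and *Nbl1*.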

How the data were processed

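The authors deposited the bulk libraries as 1 table of normalized counts, used here as a signal on a linear scale. Per the labels and the submitters' processing notes, BWA 0.6.2-r126, STAR, featureCounts and DESeq2 were used with the mm10 build. Each value is a whole number of reads times 1 factor per library: 100% of 124078 values up to 100 reads were whole within 0.01. For single cells (mCEL-Seq2, 11 wild-type libraries of 96 wells that share their well barcodes) the authors deposited estimated transcript counts, corrected for identifiers drawn more than once, treated here as another unit and rounded after summing. Cells with more than 1500 transcripts were kept, which left more cells than the study states. Doublets were not called, since wells were sorted singly. *Mof* knockout plates carry no gates and were not used.

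Genes with a mean of at least 10 normalized counts (19765) were fitted with limma 3.58.1 in R 4.3.3 over all 12 libraries, with a trend and no block. Sums per plate and gate (50756 to 959426 transcripts, 9281 genes after filtering; 2635 for the sides of the neural gate) were fitted with edgeR 4.0.16, and with DESeq2 1.42.0 as an alternative. Tests were two-sided with Benjamini-Hochberg adjustment over all genes tested. The sources used here do not tie plates to brains, so p-values over plates may measure technical spread. Clopper-Pearson intervals, sums and figures were made in Python 3.11.15 with scipy 1.17.1 and matplotlib 3.10.9. Levels per kb used the exons of GENCODE vM21, in which 53274 of 53465 genes had a symbol. The fits were tested on simulated data.

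The members, the pathway list and the marker lists were chosen with earlier results of these data known. Named are the 10 members, genes of the pathway list by role, and for each member the 3 genes with the highest Pearson r among those with a mean of at least 100. Same-numbered libraries were taken as 1 brain from the study's description. Deviations from the group means of same-numbered libraries correlated between -0.06 and 0.13. Alternatives covered pseudocount, minimum, quantile normalization, blocks, tools, filters, fold threshold, depth and each replicate left out. Promoters of *Id1*, *Bmp2* and *Bmp7* were not used here.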

Additional observations from a re-analysis of the deposited data

How the results depend on the processing

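No called difference of a member changed sign under any alternative run. Under the alternatives, 221 bulk values of called differences kept their call and 19 lost it, and 87 single-cell ones kept it and 11 lost it. The bulk losses concern *Bmp4*, *Bmp6* and *Id2*, the single-cell ones *Id1*, *Id2* and *Bmpr2*. The counts of members called moved by over 1.5 times as follows. For bulk mural minus endothelial, edgeR on the recovered reads called 2 (the main count is 1), and leaving out a brain gave 1 to 2. For bulk microglia minus neural, quantile normalization called 8 in place of 5, adding *Bmp4*, *Id1* and *Id3*. It shifted the median difference of all genes by 0.303 for mural, 0.285 for endothelial and 0.197 for microglia minus neural. For single-cell mural minus endothelial, 2 were called without the filter on low counts, *Bmp4* and *Smad6*, and 0 to 2 with a plate left out (2 without plate 3). Neither *Bmp4* nor *Smad6* had a transcript on plate 3 in these gates. For single-cell microglia minus neural, DESeq2 called 0, and leaving out a plate gave 0 to 1. For the sides of the neural gate, 2 were called without the filter, which was added after seeing the data, and 0 to 1 with a plate left out (*Id3* without plate 3, where it passed the filter through the progenitor side). With a brain left out, the members above each of the other 3 populations were 0 to 1 for microglia (*Id2* was lost without brain N-340), and the other pathway genes were 10 to 14 for neural, 0 to 1 for mural and 2 to 4 for endothelial cells.

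Without the minimum level the adjusted p was 0.0569 for *Bmp4* in mural against neural cells, and for endothelial cells against microglia 0.0633 for *Bmp4* and 0.0762 for *Bmp6* (0.0616 and 0.0646 with a pseudocount of 10). edgeR on the recovered reads called 3915 to 10204 genes per comparison and limma 4469 to 10618. With the brain as a replicate block, members called were 1, 6, 6, 4, 5 and 5 (1, 6, 7, 6, 5 and 5 without it; mural minus endothelial, microglia and neural, endothelial minus microglia and neural, microglia minus neural), by the loss of the *Bmp4* and *Bmp6* calls given above, and the block changed no other call. With the plate as a block all member counts stayed the same. Thinning moved 28 shares of cells outside their interval, all downward. *Bmp7* and *Bmp5* gave under 10 transcripts each over the 686 cells, too few to compare gates.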

Other observations

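Some genes of the pathway list were too low to test but were not evenly spread. *Bmp10*, known mainly as a cardiac ligand, had 20.2, 29.6 and 35.3 normalized counts in microglia and 0, 2.84 and 25.6 in endothelial cells, with no read in neural or mural cells. *Gdf6* was at 8.45 to 10.7 in neural cells with no read elsewhere. *Smad9*, the third receptor-regulated BMP Smad, had 18.8 to 22.7 in neural cells and at most 0.939 elsewhere.

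Cells with an *Id1* transcript also held an *Id3* transcript in 44 of 60 cases in the mural gate (73.3%) and 55 of 67 in the endothelial gate (82.1%). Of the cells with *Id3*, 29.3% and 39.6% held *Id1*. In the neural gate 4 of 9 *Id1* cells held *Id3* (44.4%). Deeper cells hold more transcripts of every gene, and the part of depth in these shares was not tested.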
